A study of Arabidopsis thaliana with 9 samples.

Results

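SACL1 (AT5G09460) and SACL2 (AT5G50010) are Arabidopsis thaliana genes for basic helix-loop-helix (bHLH) proteins related to SAC51. They were followed here as the probe sets that name each gene alone, which gave 1 probe set per gene, 13523847 for SACL1 and 13512910 for SACL2. These are 2 of the 16550 genes named alone by a probe set in the series. Each of the 9 samples was suspension culture cells of the line Alex, background Col-O, transformed with LHW and T5L1-GFP under an estrogen-inducible system and kept in the dark. The groups were cells after 12 h with 5 µM estrogen, cells after 12 h without estrogen and cells at 0 h, with 3 replicates each. Since every group carried the inducible genes, LHW, T5L1 and the estrogen treatment as sources of a difference cannot be told apart. The labels do not say whether the line was 1 clone or whether replicates were separate cultures, and the p-values given here cover no more than the spread among the arrays, part of which may be technical. In bulk RNA, fewer cells of a type and less RNA per cell cannot be told apart.

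LHW pairs with bHLH proteins of the TMO5 family, among them T5L1, and these pairs promote cell division and early patterning in vascular tissue. Proteins of the SAC51 family can also bind LHW and so compete with its partners. Their mRNAs carry upstream open reading frames that limit translation of the main protein. Thermospermine, the polyamine made by ACL5 in xylem precursors, relieves that block for some members of the family, not necessarily for all. The arrays report transcript level only, so translation of these mRNAs was not measured.

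Induction was first checked on LHW itself. LHW had log2 signals of 10.72, 11.05 and 11.24 with estrogen at 12 h, against 8.72, 8.60 and 8.14 without it. At 0 h its log2 signals were 8.60, 8.71 and 8.22. The arrays with estrogen stood clear of all others. The LHW probe set was 5.73-fold higher with estrogen than without at 12 h (limma, adjusted p = 0.00506). T5L1 had no probe set naming it alone and was not analysed here.

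Some facts of the arrays bear on all values below. Array medians over all probe sets ran from 5.28 to 5.67 at 0 h and from 5.81 to 6.21 at 12 h, so they differed with time. Over probe sets with 1 gene they ran from 5.07 to 5.40 at 0 h and from 5.12 to 5.39 at 12 h. Within each group the array of replicate 3 had the highest median, and in replicate 3 the 3 arrays held exactly the same value for 7381 of 38310 probe sets (19.3%), against 19 in replicate 1 and 16 in replicate 2. The 23 background rows, filled on the 6 arrays of replicates 1 and 2, had mean log2 signals from 1.2 to 7.93 with a median of 4.13. On those 6 arrays, 39.7% of probe sets with 1 gene had a mean below this median. No defining marker was available for the labelled line. None of the 4 xylem vessel and 4 phloem markers had its own probe set. The root hair expansins EXPA7 and EXPA18 had group means from 3.16 to 4.01, below the background median, and were not called in any comparison on the values as deposited.

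SACL1 gave a signal above the background median on all 9 arrays. This signal was steady within each group and was lower at 12 h than at 0 h. Its log2 signals were 7.29, 6.95 and 7.05 at 12 h with estrogen, 7.15, 7.03 and 7.04 at 12 h without estrogen, and 7.74, 7.73 and 7.97 at 0 h. All 6 arrays at 12 h lay below all 3 arrays at 0 h, while the arrays with and without estrogen overlapped. Groups that did not overlap, with 12 h lower than 0 h, were found for 14.6% of all probe sets without estrogen and for 14.6% with it. The group means were 7.10 ± 0.17, 7.08 ± 0.07 and 7.81 ± 0.14 in the same order (SD, n = 3 each). The lowest SACL1 value lay above 17 of the 23 background rows. Its residual SD of 0.13 was low for these arrays, with 7.50% of probe sets below it and a median of 0.31 over all.

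SACL2 gave a signal that was not shown to be clear of background in any group. Its log2 signals were 2.58, 2.15 and 3.06 at 12 h with estrogen, 2.42, 2.35 and 3.06 at 12 h without estrogen, and 2.80, 2.17 and 3.06 at 0 h. All 9 values lay below the background median, and the 3 groups overlapped. The highest SACL2 value lay above 10 of the 23 background rows. The replicate 3 arrays held 1 and the same value, so for SACL2 every difference within replicate 3 was exactly 0. The group means were 2.60 ± 0.46 with estrogen, 2.61 ± 0.39 without it and 2.68 ± 0.46 at 0 h (SD, n = 3 each). A lack of difference at such levels cannot be told apart from a transcript too weak for this probe set.

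**Figure D1:**
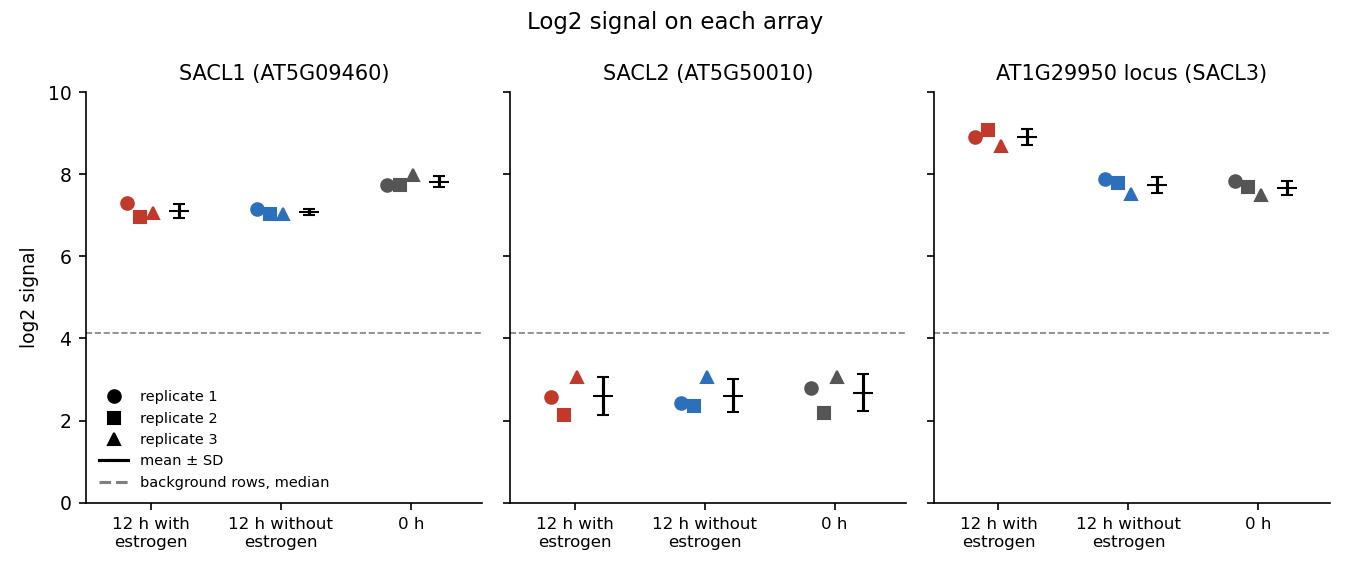
Log2 signal (vertical axis) of SACL1, SACL2 and the probe set of the AT1G29950 locus on each of the 9 arrays, by group. Symbols give the replicate number, black bars the mean and SD of 3 arrays, and the dashed line the background rows' median of 4.13. SACL1 is higher at 0 h than in both 12 h groups, SACL2 lies below the dashed line throughout, and the AT1G29950 probe set is higher with estrogen than in the other groups.

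The comparison of cells with and without estrogen at 12 h asked what differed with estrogen, in cells carrying the inducible genes, at equal time in culture. Neither SACL1 nor SACL2 was called. SACL1 differed by 0.02 on the log2 scale (SE 0.16, limma adjusted p = 1), with a 95% interval from -0.34 to 0.38, which is 0.79-fold to 1.3-fold. By replicate number the SACL1 differences were 0.14, -0.08 and 0.01. SACL2 differed by -0.01 (SE 0.32, limma adjusted p = 1), with an interval from -0.73 to 0.71, and was higher with estrogen in 1 of 3 pairs, lower in 1 and equal in 1. Over all probe sets 15 were called in this comparison (0.0392%), or 23 (0.06%) with the replicate number as a block, and 2.23% had an unadjusted p under 0.05, neither SACL1 nor SACL2 among them. For SACL2 the interval spans 0.60-fold to 1.63-fold, wider than that of SACL1 in this fit without a block. With the replicate number as a block the SEs were close, 0.12 for SACL2 and 0.11 for SACL1. The SACL2 pairs behind that SE include the difference of exactly 0 in replicate 3.

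Cells kept for 12 h without estrogen were set against 0 h cells to see changes over time that needed no induction. SACL1 fell by 0.74 on the log2 scale (SE 0.16, 95% interval -1.10 to -0.38), to 59.9% of its 0 h signal, and limma called it with adjusted p = 0.00488. It was lower in 3 of 3 pairs, by log2 differences of -0.59, -0.70 and -0.93. A call was common in this comparison, with 39.3% of all probe sets called in either direction, 27.4% called higher and 11.9% called lower. Of probe sets with 1 gene, 12.8% had a lower difference than SACL1. SACL2 differed by -0.07 (SE 0.32, interval -0.79 to 0.65, limma adjusted p = 0.916) and was not called.

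The size of the SACL1 fall depended on the scaling between arrays. It was -1.21 after each array was centred on its median over all probe sets, where the median difference of probe sets with 1 gene was itself -0.47. As deposited that median was -0.0003. After centring on the named probe sets alone the SACL1 difference was -0.79.

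Cells with estrogen at 12 h were also compared with 0 h, which combines the estrogen treatment and time. This comparison shares the 0 h arrays with the previous one. SACL1 fell by 0.72 (SE 0.16, interval -1.08 to -0.36), to 60.9% of its 0 h signal (limma adjusted p = 0.00552), and was lower in 3 of 3 pairs. In this comparison 39.9% of all probe sets were called in either direction and 11.7% were called lower. SACL2 differed by -0.08 (SE 0.32, interval -0.80 to 0.64, limma adjusted p = 0.90). Centring on the median over all probe sets gave -1.24 for SACL1. The order of the SACL1 levels was thus 0 h above both 12 h groups, and the 12 h groups did not differ beyond their spread.

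**Figure D2:**
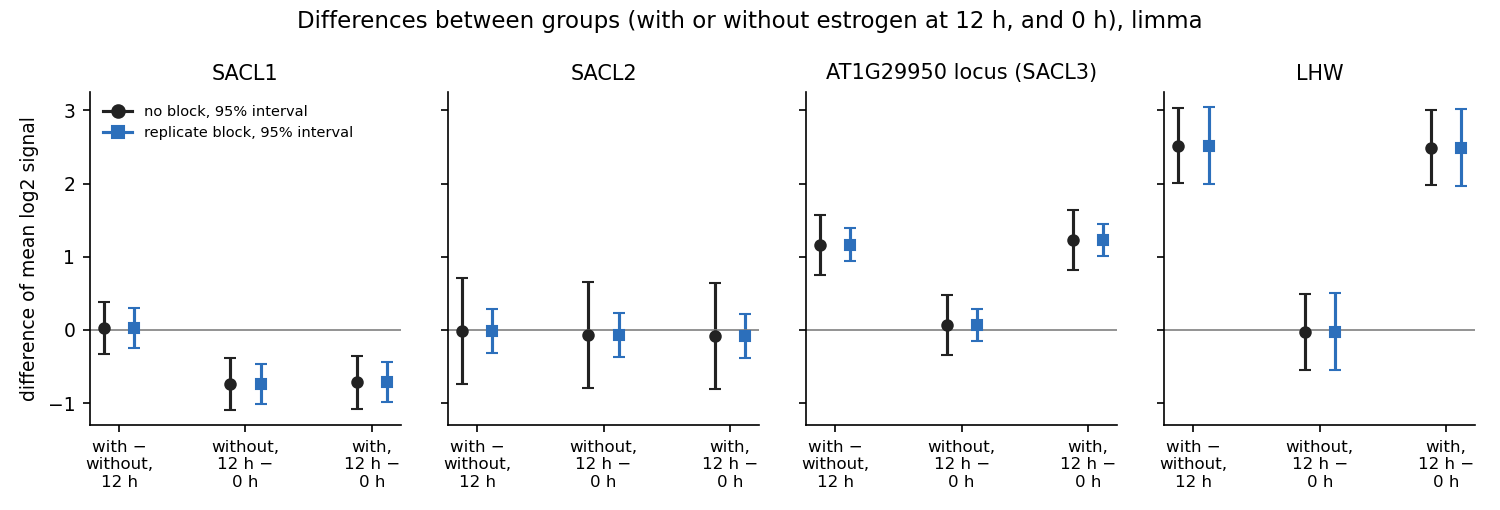
Differences of mean log2 signal (vertical axis) for SACL1, SACL2, the AT1G29950 probe set and LHW in each of the 3 comparisons, with 95% intervals from limma, as circles without a block and as squares with the replicate number as a block. SACL1 lies below 0 in both comparisons with 0 h and at 0.02 with against without estrogen, whereas AT1G29950 and LHW lie above 0 wherever cells with estrogen are compared.

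Whether SACL1 and SACL2 changed by the same amount was tested on the difference of their log2 signals within each array. That difference was lower by 0.67 at 12 h without estrogen than at 0 h, and lower by 0.63 at 12 h with estrogen than at 0 h. In both cases all 3 arrays at 12 h lay on 1 side of the 3 arrays at 0 h, with an exact two-sided permutation p of 0.1, which is the smallest that 3 against 3 arrays allow. With against without estrogen it differed by 0.04 (exact permutation p = 0.70). After Benjamini-Hochberg adjustment over these 3 comparisons the exact permutation p-values were 0.15, 0.15 and 0.70. Since no p under 0.1 was possible and SACL2 lay below the background median throughout, these values do not say whether the genes responded alike or differently.

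SAC51 had no probe set naming it alone and was not analysed here. The locus AT1G29950, which encodes SACL3, the remaining family member, is not counted with SACL1 and SACL2. The platform annotation pairs probe set 13346048 with that locus name alone but gives it under 2 gene IDs, of which 1 was found in the RefSeq gene table. What the second ID adds to its signal was not tested. This probe set had log2 signals of 8.91, 9.08 and 8.69 at 12 h with estrogen, against 7.89, 7.80 and 7.51 at 12 h without estrogen. At 0 h they were 7.82, 7.69 and 7.49. The 3 arrays with estrogen stood above all 6 others, while the groups without estrogen and at 0 h overlapped.

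The AT1G29950 probe set was 2.24-fold higher with estrogen than without at 12 h (difference 1.16, SE 0.18, 95% interval 0.75 to 1.57) and higher in 3 of 3 pairs, by 1.02, 1.29 and 1.18. Without a block limma did not call it (adjusted p = 0.193), and with the replicate number as a block it did (adjusted p = 0.0367). The adjusted p ranged from 0.00458 to 0.988 over 19 alternatives, of which 3 made the call, while the difference stayed between 1.05 and 1.27. Groups that did not overlap with estrogen higher were found for 2.88% of all probe sets. Against 0 h it rose by 1.23 with estrogen (limma adjusted p = 0.000574), in a comparison where 28.2% of probe sets were called higher. Without estrogen it differed from 0 h by 0.07 (SE 0.18) and was not called.

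The log2 difference of AT1G29950 over SACL1 within arrays was 1.80 ± 0.29 with estrogen, against 0.66 ± 0.16 without estrogen at 12 h (SD, n = 3 each). At 0 h it was -0.15 ± 0.30 (SD, n = 3). No pair of these groups overlapped, so the difference also separated the 12 h cells without estrogen from 0 h, by 0.81. That value restates the changes given above, -0.74 for SACL1 and 0.07 for AT1G29950. How often other pairs of probe sets separate in this way was not tested. Each of the 3 comparisons had an exact two-sided permutation p of 0.1, the smallest possible with 3 against 3, and 0.1 after adjustment over the 3. This test was chosen after the values were seen.

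**Figure D3:**
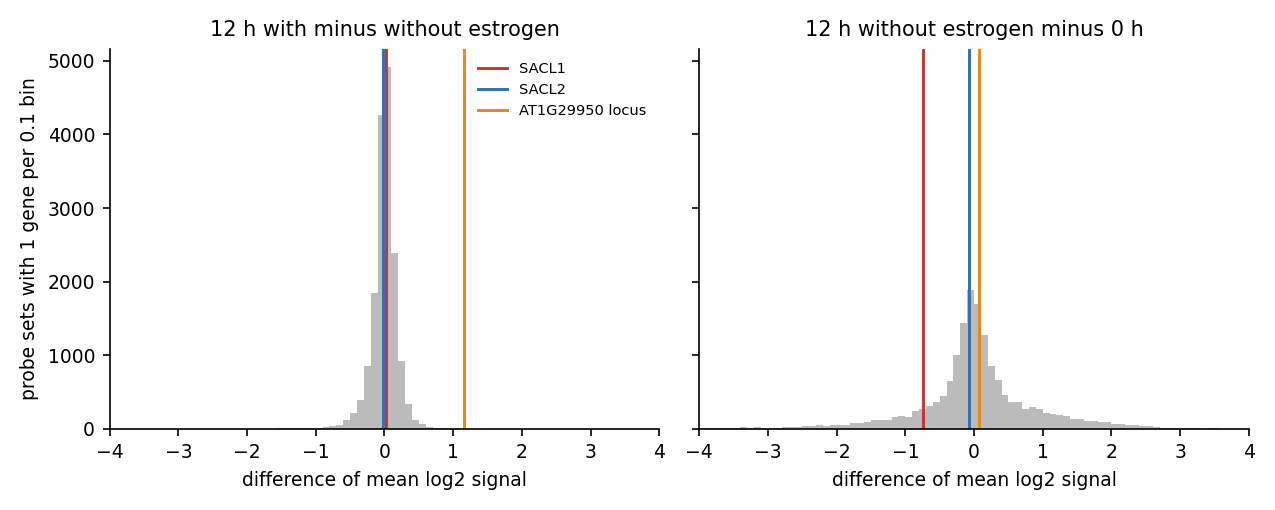
Number of probe sets with 1 gene (vertical axis) per 0.1 bin of the difference of mean log2 signal (horizontal axis), for 12 h with minus without estrogen on the left and for 12 h without estrogen minus 0 h on the right. Coloured lines mark SACL1 (0.02 and -0.74), SACL2 (-0.01 and -0.07) and the AT1G29950 probe set (1.16 and 0.07). The distribution is far wider over time in culture than with estrogen.

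In the LHW and TMO5 families 3 of 8 genes had a probe set of their own, namely LHW, T5L2 and T5L3. With estrogen against without, LHW was the 1 called, and T5L2 (-0.04, SE 0.17) and T5L3 (0.21, SE 0.46) were not. T5L2, a TMO5 relative, had log2 signals of 8.69, 8.67 and 8.83 at 12 h without estrogen, against 7.04, 7.11 and 7.35 at 0 h, and rose by 1.57 (SE 0.17, limma adjusted p = 9.95e-05). A second probe set of T5L2 gave 0.79 (SE 0.36) and was not called without the block (limma adjusted p = 0.124), but was called with it (adjusted p = 0.000456). T5L3 had group means of 3.51 with estrogen, 3.30 without estrogen and 3.03 at 0 h, all below the background median. With estrogen against 0 h, T5L3 was not called without the block (0.48, SE 0.46), but was called with it (adjusted p = 0.0445), with replicate 3 as a block (0.0449) and in replicates 1 and 2 alone (0.66, adjusted p = 0.0379).

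Of 12 genes of thermospermine and polyamine synthesis, 3 had a probe set of their own, and none of these 3 was called in any comparison on the values as deposited. Of all probe sets, 0.0392% were called with against without estrogen, 39.3% at 12 h without estrogen against 0 h and 39.9% with it. A lack of calls among 3 genes therefore says little about polyamine synthesis. After centring over all probe sets SAMDC1 was called lower at 12 h than at 0 h, with estrogen (-0.50, adjusted p = 0.0354) and without it (-0.51, adjusted p = 0.0355). The 3 measured genes, SAMDC1, SAMDC2 and SAMDC3, encode S-adenosylmethionine decarboxylases, which supply the aminopropyl groups of polyamines. SAMDC1 had group means of 9.35 with estrogen, 9.29 without estrogen and 9.33 at 0 h. SAMDC2 had group means of 1.66, 1.60 and 1.53 in the same order, all below the background median. SAMDC3 differed by 0.99 (SE 0.54) at 12 h without estrogen against 0 h, and by 0.16 in replicates 1 and 2 alone. ACL5, the thermospermine synthase, and BUD2, which feeds it, had no probe set of their own, and neither did any of 5 polyamine oxidases. Mutations in ribosomal proteins also suppress the acl5 phenotype, and of the 3 such genes listed RPL4A was measured. RPL4A rose by 1.33 (SE 0.43, limma adjusted p = 0.0336) at 12 h without estrogen against 0 h, a call that ended after quantile normalization (1.09, adjusted p = 0.139), after centring over all probe sets (0.86, adjusted p = 0.207) or over named ones (1.28, adjusted p = 0.0824), and without replicate 3 at 0 h (0.86, adjusted p = 0.0791), replicate 1 without estrogen (0.104) or replicate 2 without estrogen (0.106).

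Other genes whose mRNAs carry a conserved upstream open reading frame gave a mixed picture over time in culture. Of 17 such genes 7 were measured, of which 3 were called higher and 1 lower at 12 h without estrogen against 0 h, where 27.4% of all probe sets were called higher and 11.9% lower. With against without estrogen 0 of the 7 were called, where 0.0392% of all probe sets were. Their median difference over time was 0.84, against 0.12 for all probe sets and -0.0003 for probe sets with 1 gene. After quantile normalization the list median was 0.37, with 1 called higher and 1 lower, against -0.18 for probe sets with 1 gene. In replicates 1 and 2 alone the list median was 0.16, with 3 called higher and 1 lower. The bZIP transcription factor gene BZIP53 had log2 signals of 8.93, 8.97 and 9.76 at 12 h without estrogen, against 10.11, 10.08 and 10.87 at 0 h, and fell by 1.13 (SE 0.34). Its relative BZIP44 rose by 0.84 (SE 0.17). The phosphoethanolamine methyltransferase genes PMT2 and PMT3, which act in phosphocholine synthesis, rose by 1.09 (SE 0.14) and 1.11 (SE 0.28). The BZIP53 call ended without replicate 3 at 0 h (adjusted p = 0.0787) or without replicate 1 or 2 of the untreated 12 h cells (0.0895 and 0.0865). The calls of BZIP44 and PMT3 ended after quantile normalization, at adjusted p = 0.0926 and 0.129, and after centring over all probe sets, at 0.0776 and 0.122. Set against these called genes alone, SACL1 moved in the same direction as BZIP53 and opposite to BZIP44, PMT2 and PMT3. The remaining measured genes of this list were SAMDC1, SAMDC2 and SAMDC3, the same probe sets as in the polyamine list. They were not called on the values as deposited.

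Among 34 genes that the RefSeq table annotates as bHLH, 9 had a probe set of their own. None of them was called with against without estrogen, where 0.0392% of all probe sets were. Of 28 list genes, with LHW, SACL1, SACL2 and the AT1G29950 probe set left aside, 0 had an unadjusted limma p under 0.05 there. Over all probe sets that share was 2.23%. At 12 h without estrogen against 0 h, 2 of the 9 were called lower and none was called higher, where 11.9% of all probe sets were called lower and 27.4% higher. Their median difference was -0.13, against 0.12 for all probe sets and -0.0003 for probe sets with 1 gene, from which the list was drawn. After quantile normalization the list median was -0.42, with the same counts, against -0.18 for probe sets with 1 gene. In replicates 1 and 2 alone the list median was -0.19, with 3 called lower and 1 higher. bHLH121, a regulator of iron homeostasis, had log2 signals of 9.47, 9.48 and 9.72 at 12 h without estrogen, against 11.18, 11.20 and 11.35 at 0 h, and fell by 1.68 (SE 0.16). bHLH104, which acts in the same process, fell by 1.24 (SE 0.31). The iron regulators ILR3 (-0.13, SE 0.38) and bHLH115 (0.15, SE 0.14) were not called in that comparison. Neither was bHLH34, with means of 4.39 at 12 h without estrogen and 4.06 at 0 h, though 2 of 19 alternatives called it higher. BHLH101, with means of 2.95 and 3.43 in the same order, was not called either, but 3 of 18 alternatives called it lower. With estrogen against 0 h and with the block, bHLH115 (0.25, adjusted p = 0.0299) and BHLH92 (-0.64, adjusted p = 0.0463) were called too. The BHLH92 group means, 2.12 to 2.75, lay below the background median.

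**Figure D4:**
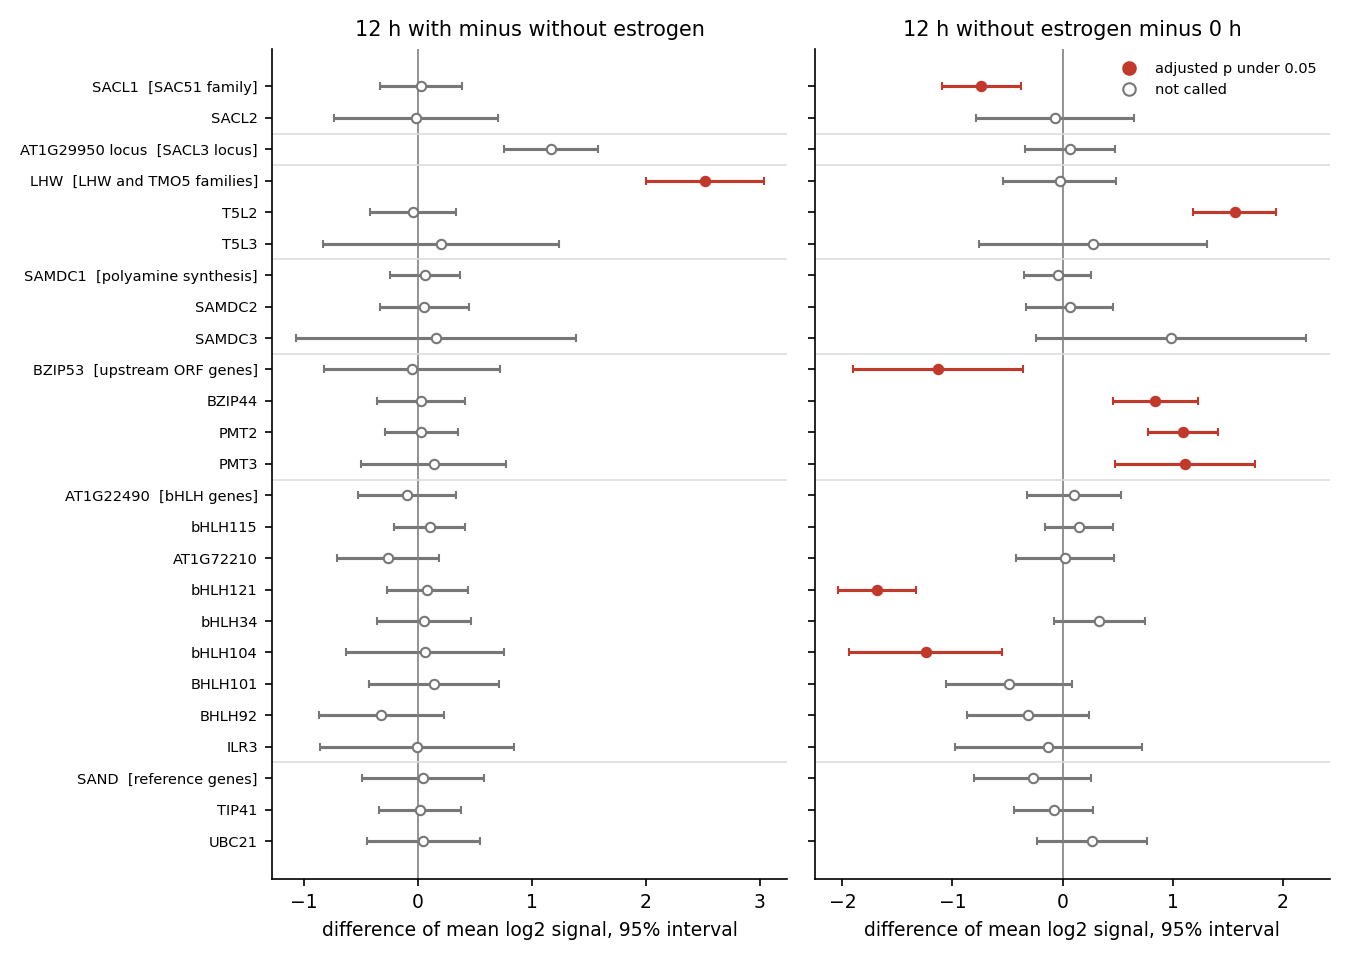
Difference of mean log2 signal with its 95% interval (horizontal axis) for SACL1, SACL2, the AT1G29950 probe set and measured genes of the related lists (rows), with minus without estrogen at 12 h on the left and 12 h without estrogen minus 0 h on the right. Filled points have an adjusted p under 0.05. LHW is the 1 filled point on the left, whereas SACL1, T5L2, BZIP53, BZIP44, PMT2, PMT3, bHLH121 and bHLH104 are filled on the right.

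Of genes reported as targets of LHW pairs, DOF2.1, a transcription factor gene, and BGLU44, a beta-glucosidase gene, had a probe set of their own. DOF2.1 did not differ with estrogen (-0.08, SE 0.25, interval -0.64 to 0.47), and at 12 h without estrogen it rose by 1.38 (SE 0.25) against 0 h. BGLU44 was not called in any comparison. Its group means were 3.25 with estrogen, 3.30 without estrogen and 2.82 at 0 h, all below the background median. Of xylem and procambium regulators PHV was the 1 measured of 10, at -0.18 (SE 0.23) with against without estrogen, and it was not called. The reference genes SAND (-0.27, SE 0.24), TIP41 (-0.08, SE 0.16) and UBC21 (0.27, SE 0.22) were not called at 12 h without estrogen against 0 h. SAND was called lower with the replicate block (adjusted p = 0.0436), while quantile normalization gave calls of lower signal for SAND (0.016) and TIP41 (0.034), as did centring over all probe sets (0.00196 and 0.00442). RCA, the Rubisco activase of photosynthesis, fell by 3.20 (SE 0.29) in the same comparison.

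The genes most like each member were taken as the 5 with the highest Pearson correlation over the 9 arrays, among 10675 probe sets with 1 gene and an SD of at least 0.3. For SACL1 these were AT1G49900 (r = 0.984), AT4G32285 (0.984), AT5G10190 (0.983), AT2G26340 (0.981) and AT2G16365 (0.981). Each was lower in both 12 h groups than at 0 h, which follows from their selection by likeness to SACL1 on these arrays. AT2G16365, for example, had means of 5.88 with estrogen and 5.76 without, against 7.98 at 0 h. In replicates 1 and 2 alone the correlations were 0.965 to 0.984. For SACL2 they were AT1G62240 (0.986), AT1G01400 (0.980), AT2G22200 (0.977), AT3G11405 (0.976) and GH9B16 (0.976), whose group means were all between 2.41 and 3.51, below the background median. In replicates 1 and 2 alone, without the equal values of replicate 3, these were 0.911 to 0.952. The arrays share groups, replicate numbers and scaling, so these correlations are descriptions without a test. Those in replicates 1 and 2 alone use arrays that also served in the selection, so they are no independent check.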

How the data were processed

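The authors deposited 1 log2 signal for each probe set and array. The submitters' processing notes name Affymetrix Expression Console 1.3. Each sample gave 1 array, hybridised with biotin-labelled DNA made from its RNA, per the labels' protocols. The summarisation, the normalization between arrays and the genome build are not given in the sources used here. Of 38506 rows, 38310 had a value on all 9 arrays. The other 196 were control rows. Platform annotation named 1 gene for 16722 probe sets, several for 759 (17 of them repeating 1 name) and none for 20829. Of the first, 16574 matched a RefSeq gene table of TAIR10.1, used for names only.

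A mean per group was fitted with limma 3.58.1 (lmFit and eBayes) in R 4.3.3, on all arrays, two-sided, and p-values were adjusted over all 38310 by Benjamini-Hochberg, with 0.05 as the limit for a call. The code was tested on simulated data. Plots used Python 3.11.15 and matplotlib 3.10.9. Arrays give no read depth, so their number limits the precision. Arrays that share a replicate number deviated together from their groups' means (r 0.173 to 0.616 over 9 pairs), so the numbers may pair the arrays. The values reported come from the fit without a block unless the block is named. Named were the members, LHW, every list gene with its own probe set (the brighter one where a gene had several) and the 5 genes most like each member. The members and lists were chosen with earlier results of these data known. Alternatives were the replicate block, other scalings, filters, priors and weights, and omission of arrays.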

Additional observations from a re-analysis of the deposited data

How the results depend on the processing

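The fall of SACL1 at 12 h against 0 h was called in 19 of 19 alternatives, both without estrogen (-1.21 to -0.64, adjusted p 0.00072 to 0.0204) and with it (-1.24 to -0.62, adjusted p 0.000607 to 0.0281). With the replicate block, adjusted p for SACL1 was 0.00194 without estrogen and 0.00217 with it, and the block changed no call of SACL1 or SACL2. With against without estrogen, the SACL1 difference of 0.02 became -0.023 after quantile normalization, -0.030 after median centring over all probe sets and -0.030 with array weights. That of SACL2 (-0.01) became 0.0013 after centring over named probe sets. The within-array difference of SACL1 and SACL2 (0.04) became -0.0071 after quantile normalization. None of these was called, so the signs carry no weight. Leaving out 1 array at a time gave ranges of -0.072 to 0.096 for SACL1 and -0.25 to 0.21 for SACL2 with against without estrogen. For SACL2 they were -0.32 to 0.12 without estrogen and -0.34 to 0.14 with it, both against 0 h. For SACL1 they were -0.78 to -0.66 and -0.81 to -0.64 in the same order. For the within-array difference of SACL1 and SACL2 they were -0.20 to 0.29 with against without estrogen, -0.80 to -0.43 without estrogen against 0 h and -0.78 to -0.38 with estrogen against 0 h. SACL2 was left out with the dimmest 25% of probe sets and has no value there. Calls with against without estrogen ran from 11 to 608 of all probe sets, against 15 as reported: 23 with the block, 40 with replicate 3 as a block, 69 in replicates 1 and 2, 95 without untreated replicate 3 and 608 with array weights. Signal over background limits what can be said of SACL2.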
